A study of Mus musculus with 2 samples.

Results

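The subject is a 3-Mb interval of mouse chromosome 13, positions 21000001 to 24000000 of build mm8, where the main histone gene cluster and a large group of tRNA genes are known to lie. It was divided by position alone into 15000 non-overlapping tiles of 200 bp, out of 13153514 such tiles on chromosomes 1 to 19, X and Y. ChIP-seq had been used to map TBP, the TATA-binding protein, in the V6.5 line of mouse embryonic stem (ES) cells, whose strain the labels give as C57BL/6-129. The antibody was AB818 from Abcam in both libraries, which form 1 group: B2 (replicate 1, 36-base reads) and B6 (replicate 2, 26-base reads). B2 cells had spent 2 passages off feeder fibroblasts and B6 cells 1, per the labels' protocols, and nothing says that the cultures were separate. No control library without antibody was analysed here, so reads that pile up for reasons other than binding cannot be told apart from bound sites.

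TBP is part of the factors that place RNA polymerase at promoters. In TFIID it serves RNA polymerase II at genes such as those of the histones, and in TFIIIB it serves RNA polymerase III at tRNA genes. Replication-dependent histone genes are packed closely in the genome, often as H2A and H2B genes that point away from each other, and many carry a TATA box shortly before the start. Transfer RNA genes are short, have their main control elements inside the gene and exist in many near-identical copies, which limits the reads that can be placed at them.

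The RefSeq table for build GRCm38.p6 was used for names and order only, since no annotation of mm8 was at hand, and no site below was assigned to a gene. Chromosome 13 had 56 of the 71 histone symbols found on nuclear chromosomes in that table. Symbols were matched by how they begin, which does not select replication-dependent genes. The 56 were 6 H1, 15 H2A, 14 H2B, 9 H3 and 11 H4 symbols and H4bc24. Among them were 2 pseudogenes, counted as genes below. Of 408 nuclear tRNA genes, 105 were on this chromosome. In table order, with genes of other kinds passed over, a run of 28 tRNA genes was followed by 19 histone genes from H2bc13 to H4bc24. Next came 31 tRNA genes, 5 histone genes from H2ac12 to H2bc11 and 1 tRNA gene. An array of 75 vomeronasal receptor genes and pseudogenes, from Vmn1r-ps92 to Vmn1r-ps135, stood next without a histone or tRNA gene in it. Last came 45 tRNA genes and 32 histone genes from H4c8 to H2ac1. At 9 places, an H2A and an H2B gene were direct neighbours pointing away from each other, as with H2ac12 and H2bc12.

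The TATA box is the sequence that gives TBP its name, and 5 histone promoters of this chromosome are shown for it. For each histone type, the first gene in table order was taken whose promoter held TATAAA on the gene's strand between 45 and 16 bases before the annotated start. Each line gives the 60 bases before the start, 5′ to 3′, from RefSeq (GRCm38.p6), with TATAAA in capitals.
H1f5 (H1, minus strand, chr13:21780626-21780685): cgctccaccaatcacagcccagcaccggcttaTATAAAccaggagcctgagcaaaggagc
H2ac22 (H2A, minus strand, chr13:21787249-21787308): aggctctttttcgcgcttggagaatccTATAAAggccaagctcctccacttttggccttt
H2bc8 (H2B, plus strand, chr13:23571340-23571399): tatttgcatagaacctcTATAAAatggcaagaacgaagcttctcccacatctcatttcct
H3c10 (H3, plus strand, chr13:21717568-21717627): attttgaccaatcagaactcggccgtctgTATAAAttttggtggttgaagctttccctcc
H4c4 (H4, plus strand, chr13:23581508-23581567): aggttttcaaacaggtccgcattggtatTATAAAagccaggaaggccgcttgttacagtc

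These 5 positions belong to GRCm38.p6 and cannot be set against the mm8 positions given for the reads. The motif began 28 bases before the start in H1f5, 33 in H2ac22, 43 in H2bc8, 31 in H3c10 and 32 in H4c4. TATAAA stood in that window in 12 of 52 histone promoter entries (23.1%) and in 702 of all 32851 entries (2.14%). By type it was found in 4 of 6 H1 entries, 4 of 13 H2A, 1 of 14 H2B, 2 of 7 H3 and 1 of 11 H4. On either strand of the whole window, 250 bases before to 50 after the start, 59.6% of histone entries and 13.6% of all entries held it. A match is a run of letters and was not shown to be a bound site.

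B2 held 15887305 distinct reads on the nuclear chromosomes and B6 2856259, where reads with 1 alignment were counted once per position and strand. Within the interval they held 41326 and 11126. Levels are given as RPM, distinct reads per 1000000 of these library totals. Of the 15000 tiles, 8362 had a read in either library and are called covered, and 6638 (44.3%) had none.

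TBP reads in the interval were packed into short sites. A tile was called enriched where B2 had at least 15 distinct reads and B6 at least 6, and 279 tiles met this, or 3.34% of the covered tiles, against 0.285% of covered tiles in the whole genome. The enriched tiles made up 1.27% of all enriched tiles of the genome, on 0.114% of its tiles. They held 55.9% of the interval's distinct reads in B2 and 70.1% in B6. Since the thresholds chose these tiles, their height is a description. An enriched tile had 15 to 257 reads in B2, with a median of 77, and 6 to 108 in B6, with a median of 22. Close to the thresholds, 9 enriched tiles had 15 to 17 reads in B2 and 35 had 6 or 7 in B6. Just outside stood 66 tiles that passed in B2 only, with medians of 19 and 3 reads, and 20 that passed in B6 only, with medians of 12 and 6.5. Of these 86 tiles, 62 touched an enriched tile.

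Enriched tiles with at most 1 other tile between them were joined, which gave 139 sites. Most were narrow: 45 were 200 bp wide, 65 were 400 bp, and 15 were 800 bp or wider. The highest tile of a site reached 1.07 RPM at the lowest, 6.73 at the median and 16.2 at the highest in B2. In B6 these values were 2.10, 12.6 and 37.8. Over the 12532 sites that the same rule gave in the genome, the medians were 2.20 and 4.55 RPM. By the mean of both libraries, 118 of the 139 sites (84.9%) lay above the genome's median site and 89 (64.0%) among its highest 10%. No other of the 888 windows of 3 Mb held as many enriched tiles or sites. The next held 246 tiles, on chromosome 11, and 121 sites, on chromosome 10, and the median window held 14 tiles.

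The sites formed 6 blocks when gaps of at most 50 kb were bridged. The first ran from 21168201 to 21538800 with 29 sites, the second from 21717601 to 21795000 with 11 and the third from 21862601 to 22058600 with 35. After a wide gap, the fourth ran from 23277801 to 23325000 with 6 sites, the fifth from 23376401 to 23630200 with 46 and the sixth from 23691201 to 23771400 with 12. Blocks 3 and 5 were the densest, at 1.79 and 1.81 sites per 10 kb, and block 1 the sparsest at 0.783. Bridging at most 20 kb gave 19 blocks and at most 100 kb gave 3, so the number of blocks is set by the choice of gap.

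**Figure D1:**
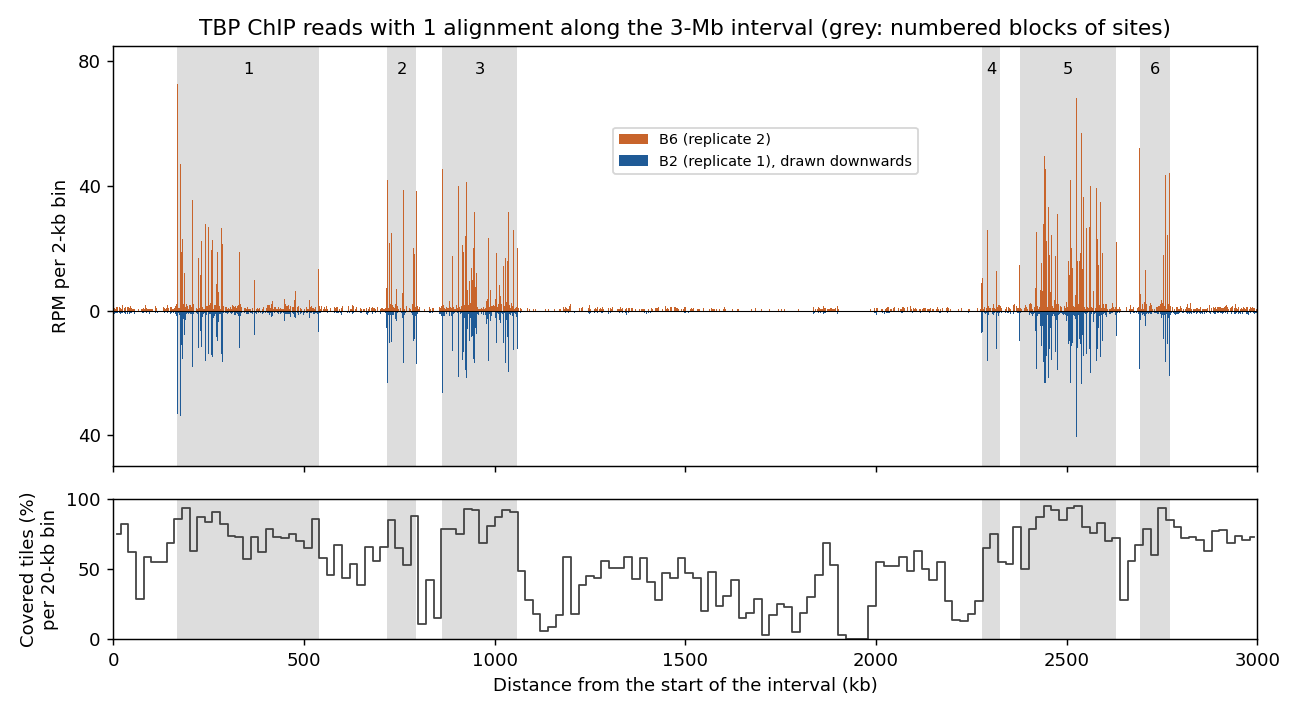
Distinct reads, in RPM, in bins of 2 kb (upper panel, B6 upwards and B2 downwards) and the share of covered tiles in bins of 20 kb (lower panel) against distance from the start of the interval in kb. Grey bands are the 6 blocks; high bins of both libraries stand inside them, and the 1219.2 kb between blocks 3 and 4 hold no enriched tile.

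Block by block, the end sites differed in size. Block 1 opened with a site from 21168201 to 21169000, with 500 reads in B2 and 206 in B6, and closed with 88 and 33 reads at 21538401 to 21538800. Block 2 opened with 411 and 128 reads at 21717601 to 21718600 and closed with 235 and 103 at 21794601 to 21795000. Block 3 opened with 398 and 123 reads at 21862601 to 21863600 and closed with 163 and 55 at 22058001 to 22058600. In blocks 1 to 3, and in block 6 below, the first site held more reads than the last in both libraries and was also wider. Block 4 opened with 190 and 52 reads at 23277801 to 23278200 and closed with 196 and 85 at 23324801 to 23325000. Block 5 opened with 107 and 31 reads at 23376401 to 23376800 and closed with 154 and 74 at 23629801 to 23630200. Block 6 opened with 281 and 141 reads at 23691201 to 23691800 and closed with 201 and 87 at 23771001 to 23771400. The median height of sites ranged over blocks from 6.04 to 7.99 RPM in B2, and from 10.5 RPM in block 1 to 16.1 in block 6 in B6.

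The stretch between blocks 3 and 4, from 22058601 to 23277800, was the wider of the 2 widest gaps and spanned 1219.2 kb. As a gap between sites it held no enriched tile by construction, so no limit on their share can be drawn from its 2076 covered tiles. Its highest tile had 10 reads in B2 and 2 in B6. Only 34.1% of its tiles were covered, against 72.6% to 83.6% in the blocks, and covered tiles held on average 1.42 reads in B2 and 0.201 in B6. A further 1346 of its tiles had reads with 2 alignments but none with 1, and none was enriched in them. Places that no read of at most 2 alignments could reach were not measured. The next widest gap spanned 178.8 kb between blocks 1 and 2, from 21538801 to 21717600. Its coverage was 54.8%, and the highest tile had 13 reads in B2 and 5 in B6.

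The highest site by the mean of both libraries lay in block 5 from 23537801 to 23539400. Its highest tile, 23538401 to 23538600, held 229 reads in B2 and 108 in B6, or 14.4 and 37.8 RPM, a mean of 26.1 ± 16.5 (SD, n = 2). It ranked 33 among the 12532 sites of the genome. More RPM in B6 than in B2 was found in 270 of the 279 enriched tiles, and the thresholds that chose them favour this, at 2.10 RPM in B6 and 0.944 in B2. The median ratio of B6 to B2 was 1.80 over the enriched tiles of the interval and 1.97 over those of the rest of the genome.

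The site from 21904401 to 21904800 in block 3 came next, with 257 and 92 reads in its highest tile (16.2 and 32.2 RPM), the highest B2 tile of the interval. The site from 23440201 to 23440800 in block 5 had 216 and 97 (13.6 and 34.0 RPM). The first site of block 1 had 208 and 88 (13.1 and 30.8 RPM). These 4 sites came from 3 blocks, so no single block held the top of the order. In block 3, the site from 21947801 to 21948000 had 225 and 84 reads. In block 5, the site from 23474401 to 23474800 had 239 and 79 reads, and the last site of block 4 had 196 and 85. The rest of the 10 highest were 21207401 to 21208200 in block 1 (205 and 79), 23569801 to 23570200 in block 5 (179 and 79) and 23746201 to 23746400 in block 6 (161 and 80). Of the 20 highest sites in each library, 11 were shared.

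The widest site was also the highest, 1600 bp with 508 reads in B2 and 208 in B6. The next 2, both of 1400 bp and both in block 5, were 23453201 to 23454600 with 487 and 133 reads, and 23524401 to 23525800 with 629 and 192, the most of any site in B2. Within the latter, the tile from 23524601 had 174 reads in B2 and 58 in B6, the tile from 23525201 had 50 and 8, and the tile from 23525401 had 77 and 27, so the site had more than 1 peak. When summits were marked at 100-bp resolution at least 151 bp apart, 113 sites had 1 summit, 16 had 2, 5 had 3 or more and 5 had none. The 161 summits had a median spacing of 3222 bp. Of the 160 spacings, 40 were under 1 kb and 10 lay between 200 and 400 bp.

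Sites stood close to their neighbours. The median gap to the nearest site was 1600 bp, against 19600 bp in the rest of the genome, and 79.1% had a neighbour within 5 kb, against 24.9%. Between 96 and 97 Mb on chromosome 3, where a smaller histone gene cluster is known to lie, 49 sites had a median gap of 6200 bp. Between 68 and 69 Mb on chromosome 11, 23 sites had a median gap of 4400 bp. Per Mb of the whole stretch, sites were as frequent in the first of these, at 49.0 against 46.3 in the interval. The interval's value takes in the 1219.2 kb between blocks 3 and 4, which held no site. In the chromosome 3 stretch the sites were lower, with medians of 3.40 RPM in B2 and 5.60 in B6. On chromosome 11 these medians were 4.47 and 7.70 RPM. These stretches were chosen with earlier results known, and the differences were not tested.

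Within the sites, the maxima of the 2 libraries lay close together, which the choice of sites partly sets. Both libraries had to pass in the same tiles, maxima were sought only inside a site, and 110 sites were at most 400 bp wide. The positions of the B2 and B6 maxima of a site differed by a median of 11 bp, and by at most 50 bp in 127 of 139 sites. Across the 279 enriched tiles, log2 RPM correlated with r = 0.913, and rho was 0.919. This describes tiles that share their libraries and their selection, with neighbouring tiles not independent.

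**Figure D2:**
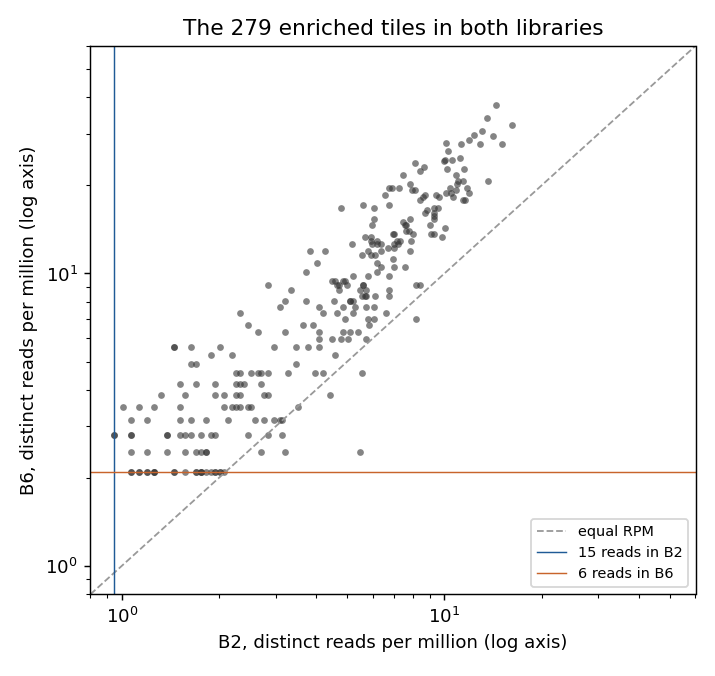
Each point is 1 of the 279 enriched tiles, with its RPM in B2 on the horizontal and in B6 on the vertical log axis. The lines mark the thresholds of 15 and 6 reads and equal RPM; 270 points lie above equality.

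Reads on the 2 strands were offset at the sites, a measure the choice of tiles did not use directly. Minus-strand ends lay beyond plus-strand ends by a median, over the 139 sites, of 107.5 bp in B2 and 79.0 bp in B6, a mean of 93.3 ± 20.2 bp (SD, n = 2). This distance was above 0 in 137 and 131 sites. Both exceptions in B2 were sites that open a block and were also below 0 in B6: the first site of block 1, at -226.5 and -327 bp, and the first of block 3, at -216 and -295 bp. These sites were 800 and 1000 bp wide and had 2 summits each, at 21168340 and 21168845 in the former and at 21862867 and 21863483 in the latter. Their distance was taken over both summits together, so it is not the strand offset at either. In the mean profile of the 113 single-summit sites, each library was centred on the maxima of the other. B2 reached 31.9 RPM per kb on the plus strand and B6 73.7, each at 25 bp before the centre. Beyond 400 bp the plus strand stood at 0.780 and 1.22 RPM per kb. In B2, the median strand distance of single-summit sites was lowest in block 2, at 69 bp over 9 sites. Block 6 followed, at 83.5 bp over 12 sites. The other 4 blocks had 102.5 to 129.3 bp, the highest from only 4 sites in block 4. These differences were not tested. In B6 the blocks lay between 74.5 and 83.0 bp, with blocks 2 and 6 both at 75.

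**Figure D3:**
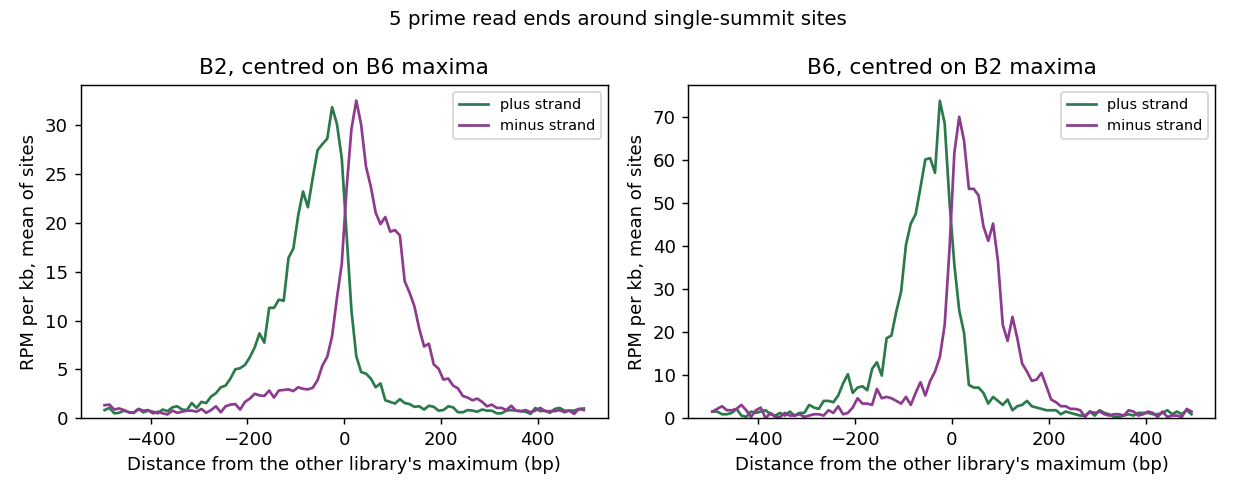
Mean density of 5 prime read ends (RPM per kb) around the 113 single-summit sites in bins of 10 bp, by strand, for B2 (left) and B6 (right), against distance in bp from the other library's maximum. Plus-strand ends peak before and minus-strand ends after the centre in both libraries.

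The share of reads from B6 changed along the interval in long stretches. Over the enriched tiles of block 1 it was 23.9% (Wilson 95% interval 22.8 to 24.96), in block 3 23.4% (22.4 to 24.4) and in block 4 22.7% (20.7 to 24.9). In block 2 it was 28.6% (26.8 to 30.4) and in block 6 30.7% (29.0 to 32.5). The intervals of blocks 2 and 6 did not overlap those of blocks 1, 3 and 4, and block 5 lay between, at 25.5% (24.7 to 26.4). Intervals here hold counting error alone: the reads came through PCR with no molecular identifiers and are not independent molecules. The difference between blocks was not tested.

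Bins of 50 kb, used where enriched tiles held at least 200 reads and chosen after the block values were seen, gave the share at a finer scale. In block 1, the 4 bins had shares of 22.2% to 25%. The bin from 22000001 to 22050000 had 24.3% (22.4 to 26.2) and the next, from 22050001 to 22100000, had 28.0% (24.2 to 32.0), with intervals that overlap. From 23250001 to 23500000 the 4 bins used had 22.2% to 24.4%. The bin from 23500001 to 23550000 had 25.4% (24.1 to 26.8) and the next 28.6% (26.7 to 30.5), again with intervals that overlap. From 23600001 to 23800000 the 4 bins had 29.9% to 33.4%. In order of position, the values were lower in block 1, higher in block 2, lower in the first 4 bins of block 3 and, after the wide gap, lower up to 23500000 and higher from 23600001 on. In distinct reads, the bins between these stretches were not separated from their neighbours by their intervals. With all reads kept, the bin from 22000001 had 18.9% (17.5 to 20.3) and the next 25.6% (22.4 to 29.0). The bin from 23500001 then had 19.2% (18.3 to 20.2), against 15.5% (14.3 to 16.7) before it and 24.6% (23.1 to 26.1) after it. These intervals of all reads did not overlap, but they treat repeats of a position and strand as independent reads. In B2, such repeats made up 41.2% of the bin from 22000001 and 44.4% of the bin from 23500001. The intervals are therefore too narrow to separate the bins. The table order of genes given above runs tRNA, histone, tRNA, histone, vomeronasal receptor, tRNA, histone, apart from the single tRNA gene before the array. Since no site was assigned to a gene, a relation between the orders was not tested.

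**Figure D4:**
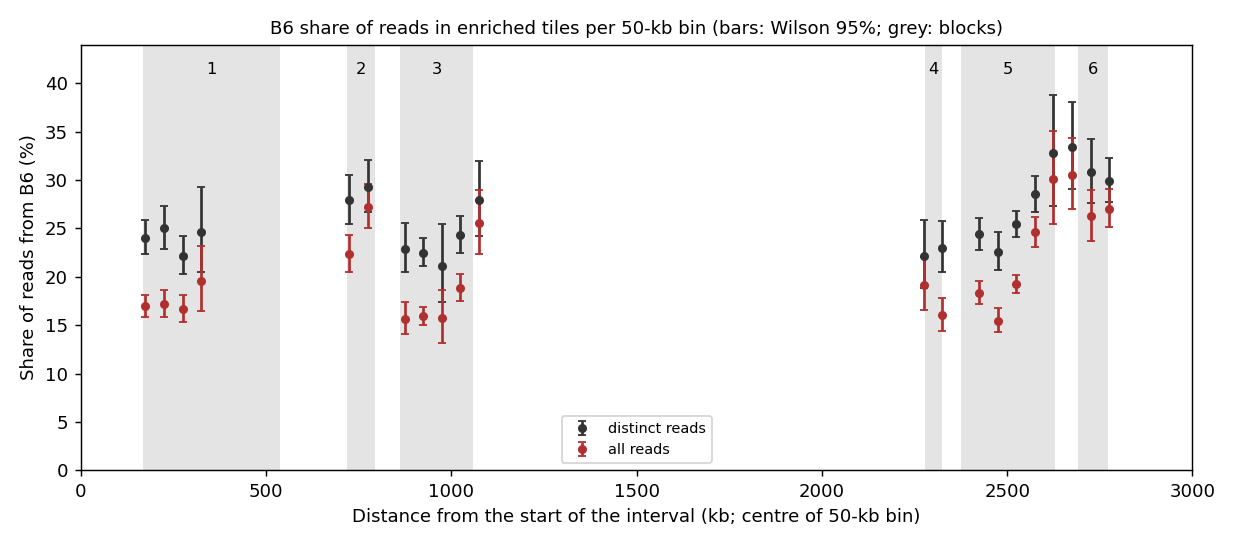
Share of reads in enriched tiles that came from B6, in percent, per bin of 50 kb with at least 200 distinct reads, against distance from the start of the interval in kb. Dark points are distinct reads and red points all reads, bars are Wilson 95% intervals and grey bands the blocks; bins of block 2 and from the later part of block 5 on stand higher in both.

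Duplicate reads moved with this pattern. In enriched tiles, 42.7% of B2 reads and 18.9% of B6 reads repeated a position and strand already used, against 4.35% and 7.72% in the other tiles. B2 duplicates made up 46.9% in block 1, 44.5% in block 3, 43.6% in block 4 and 43.0% in block 5, but 32.7% in block 2 and 28.3% in block 6. With all reads kept, the B6 share was 17.4% in block 1, 17.2% in block 3 and 17% in block 4, against 24.5% in block 2 and 27.4% in block 6. The blocks therefore stood further apart with duplicates kept than without. The highest stack at 1 position was 18 reads in B2, in the first tile of the first site, and 7 in B6. Of the 400 positions that a tile offers, the fullest tile used 64.3% in B2, and in B6 the fullest used 27%. The part of duplicates and of saturation in the differing share was not tested.

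The B6 share was also tested tile by tile. A two-sided exact binomial test set the B6 share of each tile with at least 21 reads in both libraries together against the 25.4% found over all 30508 such tiles of the genome. Of 322 tested tiles of the interval, 2 passed an adjusted p of 0.05 (0.621%), against 0.931% in the genome, and 38 (11.8%) had an unadjusted p under 0.05, against 10.9% in the genome. The tile from 21275201 to 21275400 in block 1 was lower in B6, with 87 reads in B2 and 7 in B6 (7.45%, 3.65 to 14.6, adjusted exact p = 0.00385). The tile from 22013801 to 22014000 in block 3 was higher, with 8 and 14 reads (63.6%, 43.0 to 80.3, adjusted exact p = 0.0266). Each of the 2 directions had 1 tile, against 0.764% of tested tiles higher and 0.167% lower in the genome. The count depends on the setting. With all reads kept, 46 of 337 tested tiles passed, 3 higher and 43 lower, against 884 of 33438 in the genome. Against the B6 share of all distinct reads (15.2%), 130 of 322 passed, all higher, beside 7688 of 30508 in the genome. With at least 40 reads per tile, 3 of 223 passed, all lower, beside 258 of 12576 in the genome. On simulated counts for these 30508 tiles, the test found 62.0% of 4-fold and 16% of 2-fold increases in B6. It found 20% of decreases to 0.25 and 2% of decreases to 0.5 of the level, so a tile that did not pass may still differ, and lower tiles were found less often than higher ones in that simulation. Apart from the planted tiles, the simulated counts varied around 1 share by counting error alone. The real tiles varied more, with 10.9% of those tested in the genome at an unadjusted p under 0.05. Rates of missed and false calls in the data were thus not measured, and the exact p-values leave out that wider spread.

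Averaged over all covered tiles between the sites, reads were denser than elsewhere in both libraries, but at matched distance from a site they were sparser. Neither difference was tested. Covered tiles that were not enriched held 2.25 reads in B2 and 0.411 in B6, or 0.143 ± 0.00138 RPM (SD, n = 2), against 0.119 ± 0.00540 in the rest of the genome. Over 2 kb from any enriched tile the value in the interval was 0.103 ± 0.00845 RPM. By distance, covered tiles within 400 bp of an enriched tile held 7.23 reads in B2 and 1.57 in B6, below the 8.14 and 2.03 found at that distance elsewhere in the genome. From 1 to 2 kb the values were 2.40 and 0.458, against 2.89 and 0.541. In each of 7 distance classes the interval was below the rest of the genome in both libraries. Tiles near a site were more frequent in it, with 520 of 8083 such tiles within 400 bp of an enriched tile, against 48296 of 7706800.

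Reads with 2 alignments marked further places, which the sites above leave out. By the same thresholds 30 tiles were enriched in them, or 0.979% of the 3065 tiles that held such reads, against 0.148% in the genome. The trait was not particular to the interval: beside these 30 of its 15000 tiles, the chromosome 3 stretch had 57 of 5000. The chromosome 11 stretch had 2 of 5000, and these differences were not tested. Only 9 of the 30 were also enriched in reads with 1 alignment. They formed 17 stretches. For 8 of these, the reads matched reads of another stretch at 1 constant mirrored offset that was the same in both libraries, which gave 4 pairs, each with its copies in opposite orientation. Such a read enters the list at each of its places, and which copy was bound cannot be told apart.

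The pair with the most reads joined 21817601 to 21818000, with 408 such reads in B2 and 187 in B6, and 21840801 to 21841400, with 419 and 190. Every read of one had its mirror in the other in both libraries, and reads with 1 alignment numbered at most 1 in either. In block 2, 21742201 to 21742800 (296 and 133 reads) was paired with 21757801 to 21758400 (290 and 134), with at least 97.3% matching. These stretches also held reads with 1 alignment, 24 and 17 in the first and 44 and 21 in the second. Nested inside the pair with the most reads, 21819001 to 21819800 (227 and 114) was paired with 21839001 to 21839800 (252 and 126), where 77.4% to 89.9% of B2 reads matched. The fourth pair joined block 4 with block 5, 23316401 to 23316800 (171 and 56) with 23404401 to 23404800 (157 and 53), 87.6 kb apart. The stretches of the 2 nested pairs lay between blocks 2 and 3, where 30.2% of tiles were covered by reads with 1 alignment and 12 tiles were enriched in reads with 2. For the other 9 stretches the best offset on chromosome 13 differed between the libraries, and no partner is given.

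**Figure D5:**
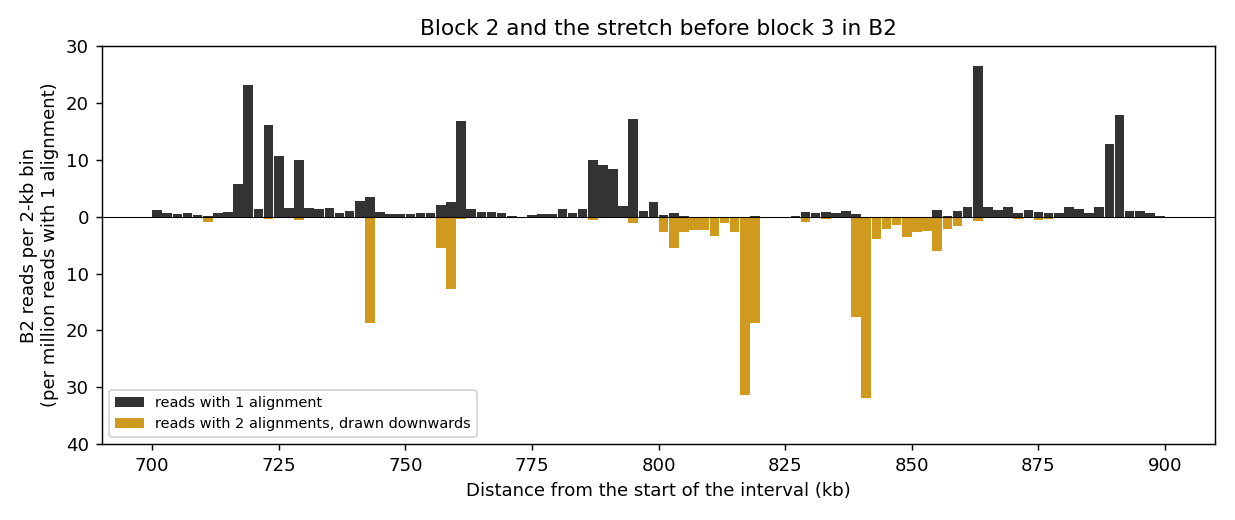
B2 reads per bin of 2 kb between 700 and 900 kb from the start of the interval, with reads of 1 alignment upwards and reads of 2 alignments downwards, both in RPM, scaled by distinct reads with 1 alignment. The high downward bars are the 3 mirrored pairs of block 2 and of the stretch before block 3, and reads with 1 alignment are near 0 at the 2 nested pairs.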

How the data were processed

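Each deposited file is a list of signed mm8 read positions (minus sign: minus strand), 1 per read. Its unit is thus other, not a count per feature, per the file headers. The same headers record Bowtie runs by the authors (-e 70, -k 2, -m 2, -n 2). The seed was 36 bases in B2 and 26 in B6. Reads with over 2 alignments were dropped, and those with 1 and with 2 were listed apart. Which Bowtie release was used is not stated.

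Tools were Python 3.11.15 with pandas 2.3.3, SciPy 1.17.1, NumPy 2.4.6 and matplotlib 3.10.9. For each position and strand 1 read was kept, its 5 prime end moved 60 bp inward, and tiles of 200 bp counted. Tiles were joined over at most 1 tile into sites. The share test adjusted p-values by Benjamini-Hochberg over all tested tiles and was tested on simulated data. Strand distances used unmoved ends within 200 bp of a site. Named were the 10 highest and 3 widest sites, the ends of blocks, the 2 widest gaps, tiles past the share test and the pairs of reads with 2 alignments. Members, lists and stretches were chosen with earlier results of these data known. P-values measure these 2 libraries only. Alternatives covered thresholds, duplicates, alignments, shifts, tile borders and each library alone.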

Additional observations from a re-analysis of the deposited data

How the results depend on the processing

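The number of enriched tiles stayed between 236 and 345 and that of sites between 129 and 152 under all alternatives tried for them, including either library alone (299 and 345 tiles, 145 and 142 sites). Blocks numbered 19 with gaps of at most 20 kb and 3 with at most 100 kb. Tiles with a different B6 share numbered 46 of 337 tested with all reads kept, against 884 of 33438 in the genome. With the expected share from all distinct reads (15.2%) they numbered 130 of 322, all higher in B6, against 7688 of 30508. At a minimum of 40 reads they numbered 3 of 223, all lower, against 258 of 12576. Reads outside enriched tiles came to 0.0785 RPM with empty tiles kept and 0.103 RPM over 2 kb from an enriched tile. Tiles enriched in reads with 2 alignments numbered 59 at 10 and 4 reads, 46 with all reads kept, and 48 to 52 with 1 library alone. The strand distance was 79.0 to 107.5 bp with 1 library alone. Except where the construction shows it, the cause was not tested. No paired analysis was possible because the libraries form 1 group. B6 held 2856259 distinct reads and B2 15887305, and calls at matched depth were not tested.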
